A study of Mus musculus with 7 samples.

Results

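The 59 Rab GTPase genes measured here were compared between livers of mice without the microRNA miR-122 and wild-type livers. Members were all genes whose symbol in the platform annotation is Rab, a number and at most 1 trailing letter, read from probe sets that name a single gene. They make up 59 of 18193 measured genes and cover each of the 59 mouse protein-coding genes in the RefSeq table that carry such a symbol. The study profiled frozen livers of 3 wild-type mice (WT-27, WT-103, then WT-104) and 4 miR-122 knockout mice (KO-03, KO-90, KO-91, then KO-94) on Affymetrix 3' expression arrays, with 1 array per animal. All animals were 2 months old and on a B6/129 background. The labels describe the knockout only as mir-122 knockout and give no sex, litter or batch, so they do not say whether miR-122 was removed from hepatocytes alone or from every cell. Values are log2 expression values, those of single livers follow the order just given, and every difference below is knockout minus wild type on that scale.

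Rab proteins are small GTPases that sit on the membranes of the cell and mark each compartment. Bound to GTP they recruit effectors such as motors and tethers that move a vesicle and dock it, and bound to GDP they are lifted off the membrane again. Exchange factors switch them on, GTPase-activating proteins switch them off, and a lipid anchor added by a geranylgeranyl transferase holds them to the membrane. Hepatocytes depend on this traffic to secrete plasma proteins and lipoproteins toward the blood and to carry transporters to the bile canaliculus. miR-122 is the dominant microRNA of hepatocytes and lowers the levels of the transcripts it pairs with.

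The arrays as named here do not measure miR-122, and the genotypes rest on the labels alone. The 10 hepatocyte markers were bright on every array and 0 passed the test in either direction, while 5 of 10 markers of hepatic stellate cells, 3 of 7 measured markers of bile duct cells and 2 of 7 of neutrophils were higher in knockout. Among hepatocyte markers Tat came closest, with a difference of 0.90, a limma adjusted p of 0.0533 and no overlap of groups. None of 10 macrophage, 9 endothelial and 8 measured lymphocyte markers passed. Relative to the wild-type mean, the summed linear level of the stellate list ran from 0.96 to 1.03 in wild type and from 1.51 to 1.98 in knockout, and that of the macrophage list from 0.78 to 1.20 and from 1.0 to 1.36. The bile duct list ran from 0.92 to 1.07 and from 1.52 to 3.37, with Krt7 and Cftr at or under background on all arrays, and the neutrophil list from 0.83 to 1.09 and from 2.39 to 9.62. The neutrophil markers that passed were S100a8 and S100a9, with differences of 3.33 and 3.16. The other measured neutrophil markers differed by -0.0062 (Camp) to 0.38 (Csf3r), and Camp and Cxcr2 lay at or under background on all arrays. In whole liver a change in the number of cells of a type and a change in RNA per cell cannot be told apart. The part of these cells in the Rab values below was not tested.

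No Rab gene passed the test: 0 of 59 were higher and 0 were lower in knockout at a limma adjusted p under 0.05, a threshold that 3.53% of all 18193 genes passed (2.58% higher, 0.951% lower). At an unadjusted p under 0.05, 11 Rab genes differed (18.6%), 9 of them higher and 2 lower, beside 16.4% of all genes. The Rab differences lay between -0.76 (Rab23) and 0.77 (Rab30), so 0 of 59 reached 2-fold, beside 474 of all 18193 genes, and 6 of 59 (10.2%) were over 1.5-fold, beside 8.01% of all genes. For 52 of 59 genes (88.1%) the 95% interval of the difference lay wholly within a 2-fold change in either direction, and for 39 (66.1%) within 1.5-fold. The same shares over all genes were 89.9% and 66.8%. These intervals are not adjusted for the number of genes.

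More Rab differences lay above 0 than below. The median was 0.07 over the 59 Rab genes and 0.01 over all genes. Without WT-104 these medians were 0.11 and 0.03. The median Rab difference of single livers from the wild-type mean ran from -0.06 to 0.04 in wild type and from -0.03 in KO-03 to 0.15 in KO-94, so KO-03 lay within the wild-type range and the other 3 knockout livers above it. In all, 40 Rab genes (67.8%) had a higher mean in knockout, beside 52.5% of all genes. Among the 41 Rab genes above background on all 7 arrays the median was 0.12 and 30 (73.2%) had a higher mean in knockout. The median of all 9923 genes above background in that way was 0.02, and 53.5% of them had a higher mean in knockout. Background was taken as the highest of 27 bacterial control probe sets on each array, 4.71 to 5.23. Of the other Rab genes, 10 lay at or under it on all arrays (among them Rab27a, Rab3c, Rab37, Rab9b and Rab40b) and 8 on some. The knockout arrays lay wholly above the wild-type arrays for 4 Rab genes (Rab1a, Rab2a, Rab7b and Rab11a) and wholly below for 3 (Rab9b, Rab18 and Rab23). That is 11.9% of members, beside 15.8% of all genes (9.15% above and 6.62% below). Between animals of 1 genotype the median residual SD was 0.19 for Rab genes and 0.19 for all genes.

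**Figure D1:**
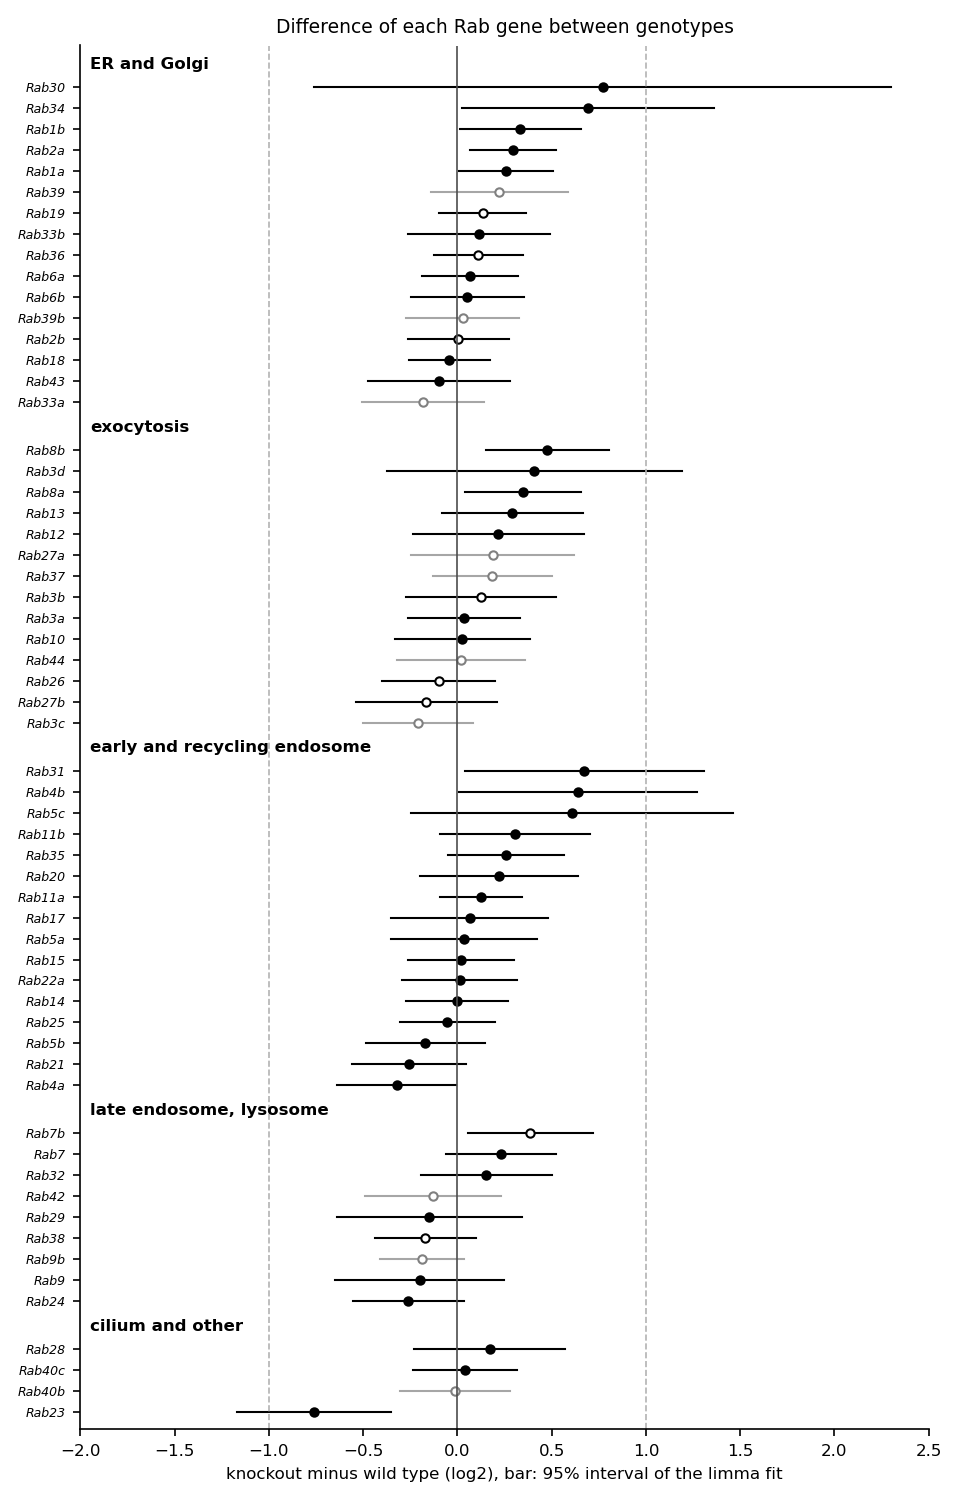
Difference of each of the 59 Rab genes, knockout (n = 4) minus wild type (n = 3) on the log2 scale, grouped by route, with the 95% interval of the limma fit as a bar. Filled points are genes above background on all 7 arrays, open points lie at or under it on some arrays and grey open points on all 7, and dashed lines mark a 2-fold change. Rab23 stands lowest at -0.76 and Rab30 highest at 0.77, with the widest bar.

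Rab23, which is known to restrain Hedgehog signalling and acts at the primary cilium, came closest to the threshold and had the lowest difference. Its wild-type values were 6.37 in WT-27, 6.94 in WT-103 and 7.05 in WT-104, and its knockout values were 5.82 in KO-03, 6.05 in KO-90, 6.27 in KO-91 and 5.95 in KO-94. All 4 knockout livers lay below all 3 wild-type livers, and WT-27 and KO-91 were the closest pair. The means were 6.78 ± 0.36 (SD, n = 3) and 6.02 ± 0.19 (SD, n = 4), a difference of -0.76 ± 0.18 (SE) with a limma adjusted p of 0.0581. Under the 18 alternatives that refit the model, the limma adjusted p ranged from 0.0255 without WT-27 to 0.231 without WT-103, and it passed in 4 of them. The second probe set of Rab23 was also lower in every knockout liver, from 5.37 to 4.60 in the means, with 4 of 7 arrays at or under background. Another differed by -0.26 and its groups overlapped.

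Rab28, Rab40b and Rab40c were placed with Rab23 in a group of ciliary and less defined routes. Rab28, which serves cilia and photoreceptors, was 7.78 ± 0.21 (SD, n = 3) in wild-type livers and 7.96 ± 0.30 (SD, n = 4) in knockouts. Its livers were 7.55, 7.90 and 7.90 in wild type and 7.55, 7.98, 8.03 and 8.27 in knockout. Rab40c, an adaptor of a ubiquitin ligase, was 7.55, 7.51 and 7.53 in wild type and 7.40, 7.63, 7.46 and 7.79 in knockout, a difference of 0.04 with a 95% interval from -0.24 to 0.32. For Rab28, KO-03 lay within the wild-type range and KO-90, KO-91 and KO-94 above it. For Rab40c, KO-03 and KO-91 lay below the wild-type range and KO-90 and KO-94 above it.

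Rab23, Rab8b and Rab34 were the members that passed under at least 1 alternative setting, and the sequence before their transcription starts is shown for that reason. Each stretch is the 250 bases before a RefSeq start in GRCm38.p6, read 5′ to 3′ on the gene's strand, and where RefSeq lists several starts the one with more CpG pairs is shown. Capitals mark matches on either strand to the GC box GGGCGG or the CCAAT box CCAAT, and no matches overlapped. Rab23 is at chr1:33720169-33720418 on the plus strand, Rab8b at chr9:66919706-66919955 on the minus strand and Rab34 at chr11:78188498-78188747 on the plus strand.
Rab23: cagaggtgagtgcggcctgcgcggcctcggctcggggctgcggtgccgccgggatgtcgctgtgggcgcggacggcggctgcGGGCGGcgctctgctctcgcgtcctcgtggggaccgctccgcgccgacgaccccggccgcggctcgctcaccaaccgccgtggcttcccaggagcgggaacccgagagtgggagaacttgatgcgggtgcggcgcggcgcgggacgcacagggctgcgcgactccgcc
Rab8b: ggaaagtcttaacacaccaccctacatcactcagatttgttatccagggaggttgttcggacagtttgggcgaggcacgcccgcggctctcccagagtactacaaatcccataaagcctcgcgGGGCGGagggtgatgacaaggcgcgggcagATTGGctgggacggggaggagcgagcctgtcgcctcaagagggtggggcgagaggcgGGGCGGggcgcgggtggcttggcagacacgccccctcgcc
Rab34: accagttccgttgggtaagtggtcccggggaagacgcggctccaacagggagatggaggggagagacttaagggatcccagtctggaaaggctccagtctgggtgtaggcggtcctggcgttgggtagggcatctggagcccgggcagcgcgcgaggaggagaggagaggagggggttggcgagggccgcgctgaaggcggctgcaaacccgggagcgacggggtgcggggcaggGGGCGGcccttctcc
The GC box occurred 1 time in the stretch of Rab23, 2 times in that of Rab8b and 1 time in that of Rab34, and the CCAAT box 1 time in that of Rab8b. The Rab23 start that is not shown had 1 GC box and 1 match to CACGTG, and that of Rab34 had 0 GC boxes. Over the family, 60 promoters of 48 Rab genes were matched. GGGCGG was present in 66.7% of them, beside 32.7% of 32851 promoters of the same length, and CCAAT in 40.0%, beside 33.8%. CACGTG, the E-box, was present in 8.33% and 6.02%, and TATAAA in 6.67% and 12.4%. The median GC content was 60.2% in Rab promoters and 52.4% in all. The set of all 32851 promoters covered 27025 genes and was not limited to the genes measured here. A match describes letters only.

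The Rabs of the route from endoplasmic reticulum to Golgi gave no call, although 13 of 16 had a higher mean in knockout. Only 10 of these 16 lay above background on all arrays. Rab1a and Rab1b carry cargo from the endoplasmic reticulum to the Golgi. Rab1a was 11.40, 11.34 and 11.25 in wild type and 11.71, 11.44, 11.55 and 11.64 in knockout, so every knockout liver lay above every wild-type liver, with WT-27 and KO-90 close together. The difference of 0.26 ± 0.11 (SE) had a limma adjusted p of 0.289, and a second probe set of Rab1a above background gave -0.16. Rab1b was 9.13, 8.89 and 9.26 in wild type and 9.19, 9.65, 9.42 and 9.45 in knockout, and only KO-03 reached into the wild-type range. Its difference was 0.33 ± 0.14 (SE), with a limma adjusted p of 0.280.

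Rab2a works between the endoplasmic reticulum and the Golgi and in the fusion of late compartments. It was 10.80, 10.68 and 10.77 in wild type and 10.97, 11.02, 11.12 and 11.09 in knockout. Both genotypes were tight, at 10.75 ± 0.06 (SD, n = 3) and 11.05 ± 0.07 (SD, n = 4), and they did not overlap. The difference of 0.30 ± 0.10 (SE) had a limma adjusted p of 0.173. Of its 2 other probe sets above background, 1 differed by 0.25 and 1 by 0.02.

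Rab34, which is linked to lysosome positioning and to the building of cilia, had wide spread in both genotypes. It was 5.87, 6.31 and 6.69 in wild type and 6.29, 7.27, 6.84 and 7.53 in knockout. KO-03 lay within the wild-type range and the other 3 knockout livers above it. The difference was 0.69 ± 0.30 (SE), with a limma adjusted p of 0.286. The second probe set of Rab34 separated the groups, with wild-type values of 5.34, 5.48 and 5.63 and knockout values of 5.90, 6.59, 6.26 and 6.80, and differed by 0.90 ± 0.20 (SE). Over all 34945 probe sets that name 1 gene, of which 2.28% passed, its limma adjusted p was 0.062, and 0.011 without KO-03.

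Rab18, a Rab of the endoplasmic reticulum and of lipid droplets, was the steadiest member. It was 10.50, 10.46 and 10.47 in wild type and 10.42, 10.42, 10.43 and 10.46 in knockout, with a residual SD of 0.019. The 2 ranges did not overlap, but the difference was only -0.04, with a 95% interval from -0.26 to 0.17 and a limma adjusted p of 0.881. The retrograde Golgi Rab, Rab6a, differed by 0.07 and its paralog Rab6b by 0.05.

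Rab30, a Golgi Rab, had the largest difference of the family and also the largest spread. It was 7.91 in WT-27, 4.92 in WT-103 and 6.51 in WT-104, and 8.54 in KO-03, 6.78 in KO-90, 6.58 in KO-91 and 6.97 in KO-94. The wild-type range thus held 3 of the 4 knockout values, and KO-03 lay above it. The difference was 0.77 ± 0.68 (SE), with a 95% interval from -0.76 to 2.30 and a limma adjusted p of 0.646. Its residual SD of 1.18 stood at the 99.8th percentile of all genes. Its second probe set was also highest in KO-03 (5.28) and, within wild type, in WT-27 (4.13), and lay at or under background on the other arrays and on WT-27.

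**Figure D2:**
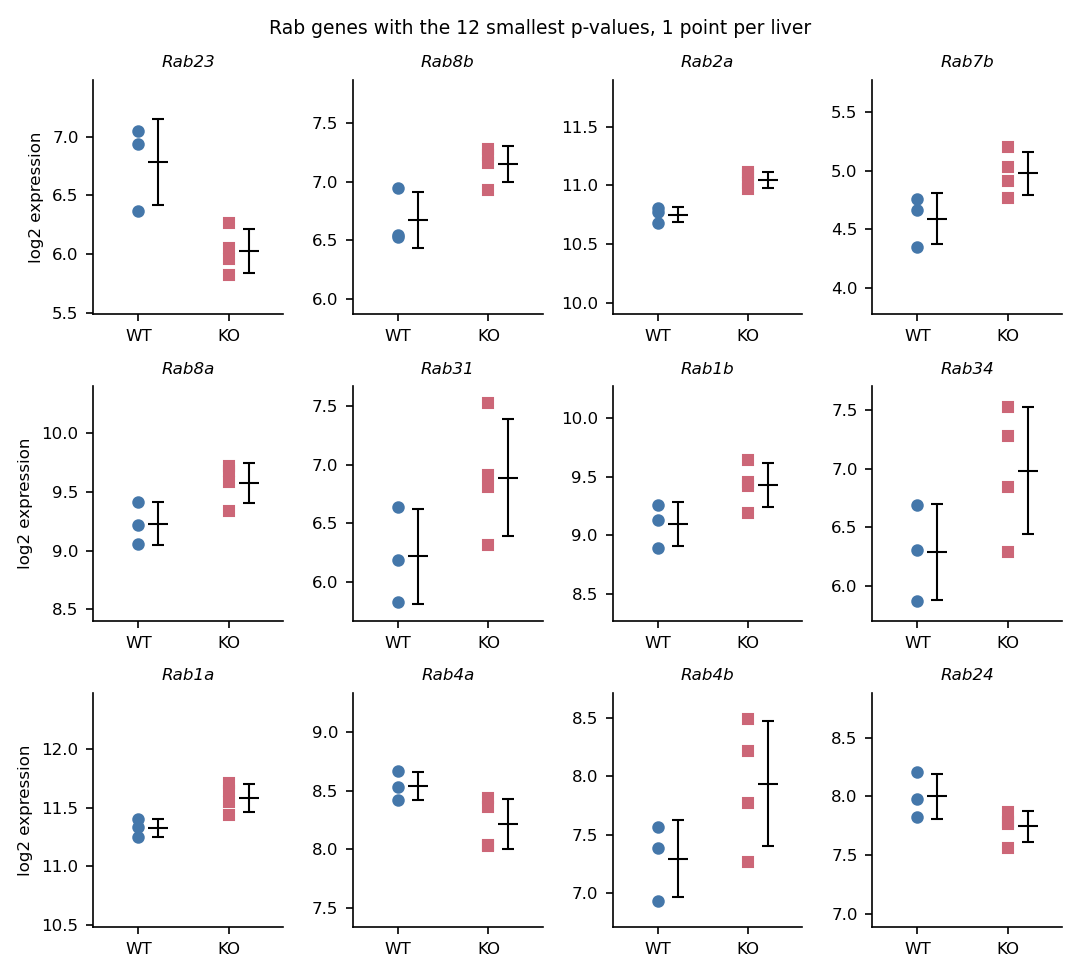
Log2 expression of the Rab genes with the 12 smallest p-values in each wild-type (WT, n = 3) and knockout (KO, n = 4) liver, with the mean and SD beside the points. Each panel has its own axis. The groups are apart for Rab23, Rab2a, Rab7b and Rab1a and overlap for the other 8 genes.

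Of 14 Rabs of regulated secretion and delivery to the plasma membrane, 11 had a higher mean in knockout, 0 passed and 0 had groups without overlap. Only 7 of these 14 lay above background on all arrays. Rab8a and Rab8b are paralogs that carry vesicles from the Golgi and recycling endosomes to the surface and into cilia. Rab8b was 6.54, 6.53 and 6.95 in wild type and 6.93, 7.23, 7.16 and 7.28 in knockout. WT-104 and KO-03 met at the border and the others were apart. Its difference was 0.48 ± 0.14 (SE), with a limma adjusted p of 0.127. It passed in 2 of the 18 alternatives that refit the model, at 0.0425 with array weights and 0.0284 without KO-03 and WT-104.

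Rab8a followed the same order of livers at the border. It was 9.22, 9.05 and 9.41 in wild type and 9.34, 9.72, 9.59 and 9.68 in knockout, and KO-03 again lay below WT-104. Its difference was 0.35 ± 0.14 (SE), with a limma adjusted p of 0.238. Rab10, which brings vesicles to the basolateral surface, was 8.89, 9.18 and 9.21 in wild type and 8.93, 9.43, 9.21 and 8.90 in knockout. KO-90 lay above the wild-type range, KO-91 at its top, and KO-03 and KO-94 within it. The Rab10 difference was 0.03, with a 95% interval from -0.33 to 0.39. Rab3d, a Rab of secretory granules, ran from 5.55 to 6.05 in wild type and from 5.20 to 6.87 in knockout, so KO-03 was the lowest liver and KO-94 the highest. Rab27a and Rab37, other Rabs of regulated secretion, lay at or under background on all 7 arrays.

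Of 16 Rabs of early and recycling endosomes, all above background on all arrays, 11 had a higher mean in knockout and 0 passed. Rab4a and Rab4b, which serve the fast return of receptors from early endosomes to the surface, stood on opposite sides of 0. Rab4a was 8.42, 8.66 and 8.53 in wild type and 8.04, 8.03, 8.36 and 8.44 in knockout, with only KO-94 inside the wild-type range. Its difference was -0.32 ± 0.14 (SE), with a limma adjusted p of 0.294, and its second probe set gave -0.01. Rab4b was 6.93, 7.39 and 7.57 in wild type and 7.27, 8.21, 7.77 and 8.49 in knockout. Its difference was 0.64 ± 0.28 (SE), with a limma adjusted p of 0.297. The test of the difference between the paralogs was not run.

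Rab31, which moves cargo between the trans-Golgi network and endosomes, was 5.82, 6.19 and 6.64 in wild type and 6.31, 6.81, 6.91 and 7.53 in knockout. KO-03 lay within the wild-type range. Its difference was 0.67 ± 0.28 (SE), with a limma adjusted p of 0.272. The second probe set of Rab31 differed by 0.49 and did not overlap between genotypes, with 3 of 7 arrays at or under background. In Rab31, Rab34 and Rab4b, WT-27 was the lowest liver of all 7 and KO-94 the highest, and KO-03 was the lowest of the knockouts. This order was not particular to these genes. By the median difference from the wild-type mean it held over all 59 Rab genes (-0.06 in WT-27, -0.03 in KO-03 and 0.15 in KO-94). It held likewise over the Rab GTPase-activating proteins (-0.02, -0.007 and 0.24) but not over the exchange factors. The summed levels of the macrophage and endothelial markers were also lowest in WT-27 (0.78 and 0.96) and highest in KO-94 (1.36 and 1.09). In both lists KO-03 was the lowest knockout. By mean log2 level the macrophage list was highest in KO-90 (8.77), just above KO-94 (8.76). The summed level of the stellate markers was highest in KO-94 (1.98) but lowest in WT-103 (0.96). The part of these markers in the 3 Rab genes was not tested.

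The other endosomal Rabs had smaller differences or more spread. Rab5c, one of the Rabs that drive fusion of early endosomes, ran from 5.91 to 7.23 in wild type and from 6.48 to 7.96 in knockout, with a difference of 0.61 ± 0.38 (SE). Its paralogs Rab5a and Rab5b differed by 0.03 and -0.17. Rab11a, the main Rab of recycling endosomes, was 9.71 to 9.78 in wild type and 9.82 to 9.90 in knockout, so its groups did not overlap. Its difference was 0.12 ± 0.10 (SE), with a limma adjusted p of 0.590. Rab14, which acts between the Golgi and endosomes, was 11.27, 11.38 and 11.33 in wild type and 11.25, 11.20, 11.56 and 11.27 in knockout. It was the member nearest 0 among those above background on all arrays, at -0.0036, with a 95% interval from -0.27 to 0.27.

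Among 9 Rabs of late endosomes, lysosomes and autophagy, 3 had a higher and 6 a lower mean in knockout, and 0 passed. Only 5 of the 9 lay above background on all arrays, and Rab9b and Rab42, counted as lower, lay at or under it on all. Rab7, which drives late endosomes to fuse with lysosomes, was 10.86, 10.74 and 10.99 in wild type and 10.96, 10.97, 11.11 and 11.34 in knockout. Only KO-91 and KO-94 lay above the wild-type range, and the difference of 0.23 had a 95% interval from -0.06 to 0.52. The other Rab7 probe set, also above background, ran from 9.21 to 9.57 in wild type and from 9.58 to 9.74 in knockout. Its groups thus did not overlap, and its difference of 0.26 had a limma adjusted p of 0.361 over all probe sets. Rab24, linked to autophagy, was 8.20, 7.98 and 7.82 in wild type and 7.77, 7.56, 7.86 and 7.78 in knockout. KO-91 lay above WT-104, and the difference of -0.26 ± 0.13 (SE) had a limma adjusted p of 0.367.

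Rab7b, a lysosomal relative of Rab7, did not overlap between genotypes, but all 3 wild-type arrays (4.35, 4.67 and 4.76) and KO-90 (4.77) lay at or under background. The other knockout values were 4.91, 5.03 and 5.20. Its 0.39 is thus a difference between levels at or near background, with a limma adjusted p of 0.226. Rab29, which acts at the Golgi and on stressed lysosomes, was 7.73, 7.87 and 8.22 in wild type and 7.27, 7.80, 7.88 and 8.22 in knockout, a difference of -0.15 with a 95% interval from -0.64 to 0.34.

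More than 1 probe set was available for 38 Rab genes. The 59 genes had 132 probe sets, of which 67 lay above background on all arrays, 43 at or under it on all and 22 in between. None of the 132 passed (0 higher, 0 lower by limma over all probe sets), 19 had an unadjusted p under 0.05, 12 had all knockout arrays above and 5 all below. The shares over all such probe sets were 14.8% for the unadjusted p, 8.25% above and 5.84% below. Of 18 genes with 2 or more probe sets above background, 12 had all of them on one side of 0, and the share over all genes was not computed. The other 6 were Rab1a, Rab3a, Rab6a, Rab14, Rab17 and Rab18, with the widest gap in Rab1a. In Rab22a, a Rab of early endosomes, the probe set used differed by 0.01 and the others above background by 0.34, 0.27 and 0.03. The 2 larger ones did not overlap between genotypes, with limma adjusted p over all probe sets of 0.257 and 0.296.

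**Figure D3:**
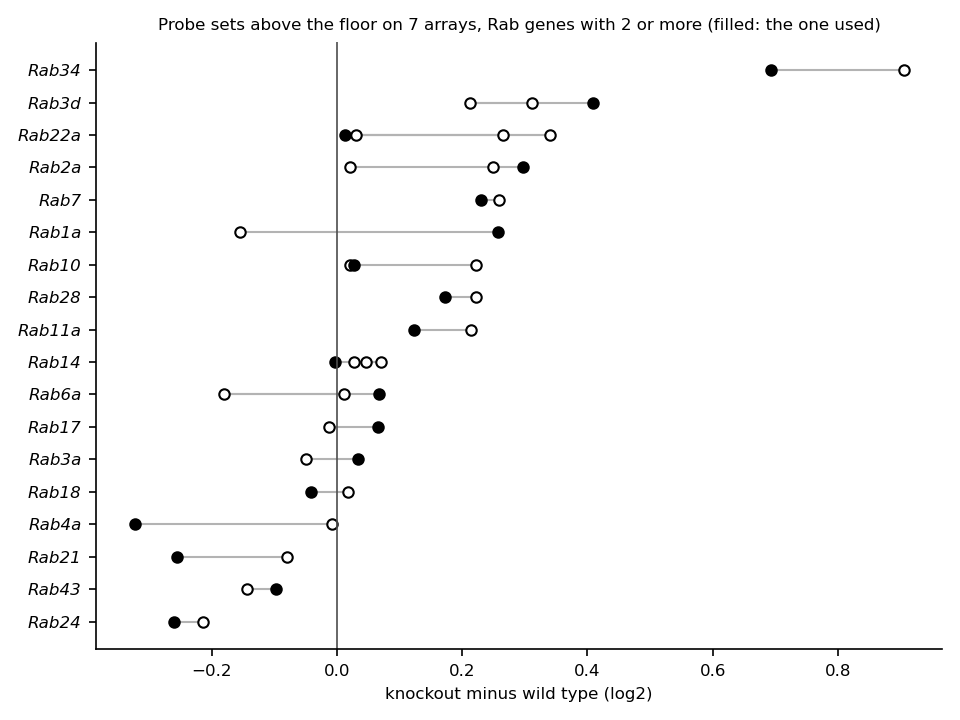
Knockout minus wild type (log2) of every probe set above background on all 7 arrays, for the 18 Rab genes with 2 or more such probe sets. The filled point is the probe set used for the gene, open points are the others and a line joins them. Both Rab34 points lie far to the right, at 0.69 and 0.90, and the Rab1a points lie on both sides of 0.

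Of the proteins that switch, anchor and read Rabs, 3 passed, all higher in knockout. Of 36 measured exchange factors 0 were higher and 0 lower, of 36 GTPase-activating proteins 2 were higher and 0 lower, of 12 prenylation and carrier genes 0 and 0, and of 56 effectors 1 was higher and 0 lower. All genes passed in 2.58% (higher) and 0.951% (lower) of cases. At an unadjusted p under 0.05 there were 6, 6, 2 and 10 in the 4 lists, or 16.7%, 16.7%, 16.7% and 17.9%, beside 16.4% of all genes. The list medians were 0.05, 0.12, -0.02 and 0.04, beside 0.01 over all genes.

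The effector that passed was Myo5b, the myosin motor that binds Rab11a and Rab8a and moves recycling endosomes toward the apical surface, which in hepatocytes is the bile canaliculus. It was 6.96, 7.11 and 6.97 in wild type and 7.79, 8.03, 7.82 and 7.97 in knockout. The genotypes were far apart, at 7.01 ± 0.09 (SD, n = 3) and 7.91 ± 0.12 (SD, n = 4). Myo5b rose by 0.89 ± 0.11 (SE), 1.85-fold, with a limma adjusted p of 0.00441, and it passed in all 18 alternatives that refit the model (adjusted p up to 0.0365). Its second probe set above background gave 0.61 and its groups did not overlap, with a limma adjusted p of 0.0855 over all probe sets, and another lay at or under background on all arrays. Its partners Rab11a and Rab8a, given above, differed by 0.12 and 0.35 without passing.

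Tbc1d10b and Tbc1d13 were the GTPase-activating proteins that passed. Both belong to the TBC family, and Rab35, a Rab of recycling endosomes, is among the substrates described for each. Tbc1d10b was 6.31, 6.23 and 6.14 in wild type and 6.90, 7.74, 6.98 and 7.79 in knockout, with KO-90 and KO-94 well above KO-03 and KO-91. It rose by 1.13 ± 0.23 (SE), with a limma adjusted p of 0.0354, and lost the call without WT-27, WT-103, WT-104, KO-90 or KO-94 (up to 0.138). Tbc1d13 was 6.95, 6.88 and 6.96 in wild type and 7.27, 7.76, 7.58 and 7.56 in knockout. It rose by 0.61 ± 0.13 (SE), with a limma adjusted p of 0.0407, and lost the call without any array but KO-03 (up to 0.169), with a trended prior and with median centring. Over all probe sets the limma adjusted p was 0.0457 for Tbc1d10b and 0.0529 for Tbc1d13. Rab35 itself was 7.17 to 7.30 in wild type and 7.27 to 7.76 in knockout, a difference of 0.26 with a limma adjusted p of 0.401.

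Next in these lists came genes that did not pass. Among GTPase-activating proteins, Tbc1d20, which acts on Rab1, gave 0.64 ± 0.17 (SE) and Usp6nl, which acts on Rab5, gave 0.50 ± 0.14 (SE), with limma adjusted p of 0.0899 and 0.110 and no overlap of groups. Among exchange factors, Hps4, part of the complex that activates Rab32 and Rab38, gave 0.46 ± 0.13 (SE) and Madd, which activates Rab3 proteins, gave -0.44 ± 0.13 (SE), at 0.0984 and 0.122. Rabggtb, the catalytic subunit of the geranylgeranyl transferase that lipidates Rabs, was 9.66, 9.06 and 9.02 in wild type and 8.99, 8.43, 8.79 and 8.61 in knockout. All its knockout livers lay below the wild-type livers, KO-03 only just, and the difference of -0.54 ± 0.19 (SE) had a limma adjusted p of 0.193. Yif1b, a membrane protein of the early secretory route, gave -0.33. The exocyst subunit Exoc6b gave 0.48, with 3 of 7 arrays at or under background, and Micall2, which binds Rab13, lay under it on all 7.

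**Figure D4:**
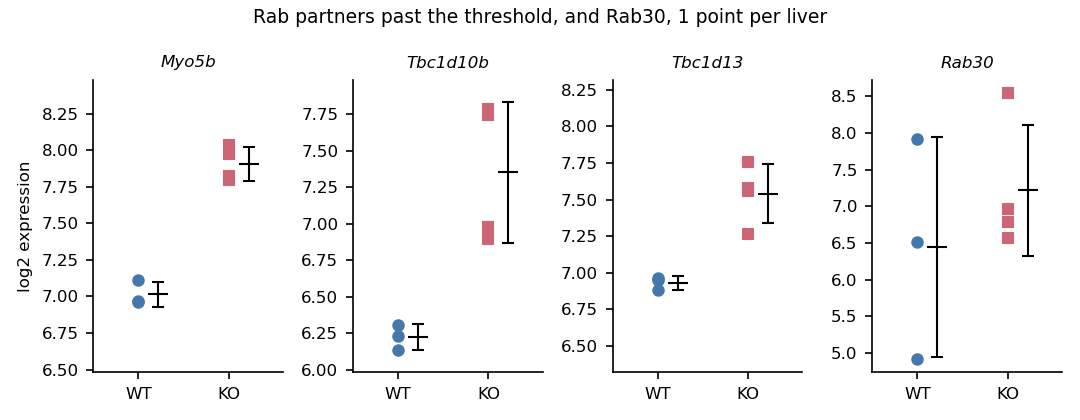
Log2 expression in each wild-type (WT, n = 3) and knockout (KO, n = 4) liver of Myo5b, Tbc1d10b and Tbc1d13, the Rab partners past the threshold, and of Rab30, with the mean and SD beside the points. Each panel has its own axis. The groups are apart in the first 3 panels, while Rab30 spreads from 4.92 to 8.54 across both.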

How the data were processed

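RNA of 7 frozen livers was hybridised to Affymetrix arrays, 1 per animal, per the labels' protocols. The authors deposited log2 values for each probe set, which came from RMA run in Partek, per the submitters' processing notes and the design text. RMA subtracts background, quantile normalizes and summarises the probes of a set. No version or build is given in the sources used here. Array values have no counts behind them, so precision rests on how many arrays there are.

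Of 45101 probe sets, 64 were controls, 34945 named 1 gene, 932 several and 9160 none (not used). Each gene was represented by its brightest probe set, judged by the mean of the 7 arrays. Genotypes were compared over all 18193 genes with limma 3.58.1 (R 4.3.3) by two-sided moderated tests without covariates, with 5 residual and 3.99 prior degrees of freedom and Benjamini-Hochberg adjustment over all genes. The labels number separate animals. The p-values, SE and intervals rest on the spread between them combined with a prior variance drawn from all genes. For steady genes the SE is thus wider than their own spread alone would give. For Rab18 the residual SD was 0.019 and the SE 0.094. The Rab members, the regulator, effector and marker lists and the background level were chosen with earlier results of these data known. Values in each liver are given for the 12 members with the smallest p and, in each of 5 groups, for the 2 with the smallest p and the one nearest 0 among those above background on all arrays. In each partner list, genes past the threshold and the next 2 by p are named. Rab30, Rab3d, Rab5c, Rab7, Rab11a, Rab14's and Rab22a's other probe sets and Rab35 were chosen after their values were seen. Alternatives covered the prior, array weights, normalization, dim genes, the choice of probe set, the threshold and single arrays left out, and the pair KO-03 and WT-104. Promoters came from a RefSeq table of GRCm38.p6 that held 48 of the 59 members. The fit was tested on simulated data. Figures used Python 3.11.15 and matplotlib 3.10.9.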

Additional observations from a re-analysis of the deposited data

Results flagged for a closer look

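Among 70 genes (the 59 Rab genes and 11 named partners), 2 had 1 knockout liver far from the other 3, and chance alone gives about 1 in 20. Rab6b, a Golgi Rab, was 5.95 in KO-94 and 5.53 to 5.57 in the other knockouts. Rab44 was 4.50 in KO-90 and 3.98 to 4.07 in the others, at or under background on all 7 arrays.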

How the results depend on the processing

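The count of Rab genes past the threshold, 0 higher and 0 lower, became 1 higher with array weights (Rab8b) and 2 higher without KO-03 and WT-104 (Rab8b and Rab34), where 6.89% and 4.78% of all genes passed in either direction. It became 1 lower (Rab23) with renewed quantile normalization, when dim genes were left out by either filter (mean at or above the median of all, or a group mean of at least 6), where 9097 and 8882 genes were tested and 6.9% and 7.76% of them passed, beside 3.5% with renewed quantiles. With single arrays left out it was 0 higher and 0 to 1 lower, the 1 being Rab23 without WT-27 (1.56% of all genes). Over single probe sets the same fits gave 0 to 1 higher (Rab34 without KO-03) and 0 to 1 lower (Rab23 without WT-27). The partner lists, 3 higher and 0 lower, gave 7 higher and 1 lower with array weights and 1 higher at an adjusted p under 0.01. Leaving out single arrays gave 1 to 7 higher and 0 to 1 lower, with 1 without WT-27, WT-103, WT-104 or KO-90 and 7 without KO-03. Over all genes 3.53% passed with all arrays, 6.89% with array weights, 6.29% without KO-03 and 0.929% to 1.89% in the 4 fits that left 1. The cause was not tested. The median Rab difference, 0.07, was 0.12 with either dim filter and 0.14 without KO-03 and WT-104. These shifts were larger than the SD of the Rab median between wild-type arrays (0.048) but not than that between knockout arrays (0.074). The median of all genes, 0.01, was 0.02 with either dim filter and 0.05 without KO-03 and WT-104. Without single arrays the median Rab difference ran from 0.05 to 0.11, the highest without WT-104, where the median of all genes was 0.03.

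Of 516 values of the 29 named genes under alternatives, 471 kept their direction and their side of the threshold, 14 newly passed, 13 no longer passed and 18 changed sign, all in Rab genes that did not pass. Rab14 (-0.0036) became 0.091 with array weights, 0.033 with renewed quantile normalization, 0.0032 with median centring, 0.027 without _x_at and _s_at probe sets and 0.021 without KO-03 and WT-104, and ran from -0.084 to 0.037 without single arrays. Rab40c became -0.011 with array weights and -0.0083 with renewed quantile normalization, and ran from -0.035 to 0.097 without single arrays. Rab10 ran from -0.078 to 0.099 and Rab29 from -0.29 to 0.025 in those fits, Rab29 became 0.17 without KO-03 and WT-104, and Rab1a became -0.12 with the mean of all probe sets. With 3 and 4 arrays the intervals stay wide for variable genes, up to -0.76 to 2.30 for Rab30. The fit over every probe set on its own gave 0 Rab genes in either direction. No paired analysis was possible because the groups share no replicate numbers.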

Other observations

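Of the 7 probe sets of Rab14, 4 above background on all arrays differed by -0.0036 to 0.07 between genotypes, but 2 dimmer ones varied widely between livers of 1 genotype. The first was 6.43, 6.60 and 4.74 in wild type and 5.78, 5.25, 5.55 and 4.40 in knockout. The second was 6.11, 5.72 and 4.02 in wild type and 5.18, 4.56, 4.96 and 3.57 in knockout. Both were low in WT-104 and lowest in KO-94, while the brightest Rab14 probe set stayed between 11.20 and 11.56. Neither passed between genotypes, with differences of -0.68 and -0.72 and limma adjusted p of 0.57 and 0.59.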
